A study of Homo sapiens with 6 samples.

Results

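The enzymes that make cholesterol and fatty acids, with the regulators that control them, were examined in RBE, a human cell line established from a cancer of the intrahepatic bile ducts. The set held 37 genes, chosen by name from the 16200 genes of the deposited table: 18 of the sterol pathway, 14 of the fatty acid pathway and 5 regulators of the sterol regulatory element-binding proteins (SREBPs). Poly(A) RNA was sequenced in 6 libraries. The 3 libraries labelled sgKCNQ3 are named for a guide RNA against KCNQ3, a voltage-gated potassium channel subunit whose knockdown the study describes, and the 3 labelled NC are their controls. No drug, time point or other treatment is named in the labels of either group. They do not say what NC cells carried, which effector worked with the guide, whether the sgKCNQ3 cells were 1 clone or a pool, or whether the 3 libraries of a group came from separate cultures. The p-values therefore reflect the variation among these 6 libraries alone, and that variation may be technical. The study asked which genes and pathways downstream of KCNQ3 change, with ERK1/2 signalling in view.

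Cholesterol is built from acetyl-CoA through mevalonate and squalene, and fatty acids from the same precursor through malonyl-CoA. Both pathways are switched on by SREBPs, membrane-bound transcription factors that the escort protein SCAP carries out of the endoplasmic reticulum when sterols are scarce. INSIG proteins hold SCAP back when sterols are plentiful. SREBP-2 acts mainly on sterol genes and SREBP-1 mainly on fatty acid genes, and in tumours both pathways are known as a source of new membrane.

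The genes of fatty acid assembly and desaturation and those of the sterol pathway did not move as a block. In the reported fit each of these groups held calls in both directions. Among fatty acid genes SCD, FASN, ACACA, ACACB and ELOVL5 rose in sgKCNQ3, while ELOVL1 and FADS1 fell. Among sterol genes MVD, ACAT2, DHCR7 and FDPS fell, while IDI1 and FDFT1 rose. Neither of these sterol risers was called in DESeq2 or without NC replicate 2 or 3, where each called sterol member was lower. With trends over transcript length and GC content removed, ACACA, ACACB, ELOVL5 and IDI1 were not called, and the group medians were -0.02 for fatty acid genes and 0.004 for sterol genes. The transcripts of SREBF1, SREBF2 and SCAP did not pass the test, and INSIG1 rose. Each change was modest: log2 fold changes of the 36 tested members ran from -0.36 for MVD to 0.37 for SCD.

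A gene was called when its adjusted p was under 0.05 in edgeR's quasi-likelihood test on counts, with Benjamini-Hochberg adjustment over all 12565 genes tested. Of the 37 members, 36 passed the filter on low counts and 14 (38.9%) were called, 8 higher and 6 lower in sgKCNQ3. Among all tested genes 29.1% were called, 14.0% higher and 15.1% lower. The share of members called was thus near the background, and no test set one against the other. Groups did not overlap in 20 members, against 41.7% of all tested genes. The median log2 fold change was 0.004 over the members and -0.007 over all tested genes, and the median size of a called change was 0.22 in members and 0.23 overall. In bulk RNA, fewer expressing cells and less RNA per cell cannot be told apart.

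**Figure D1:**
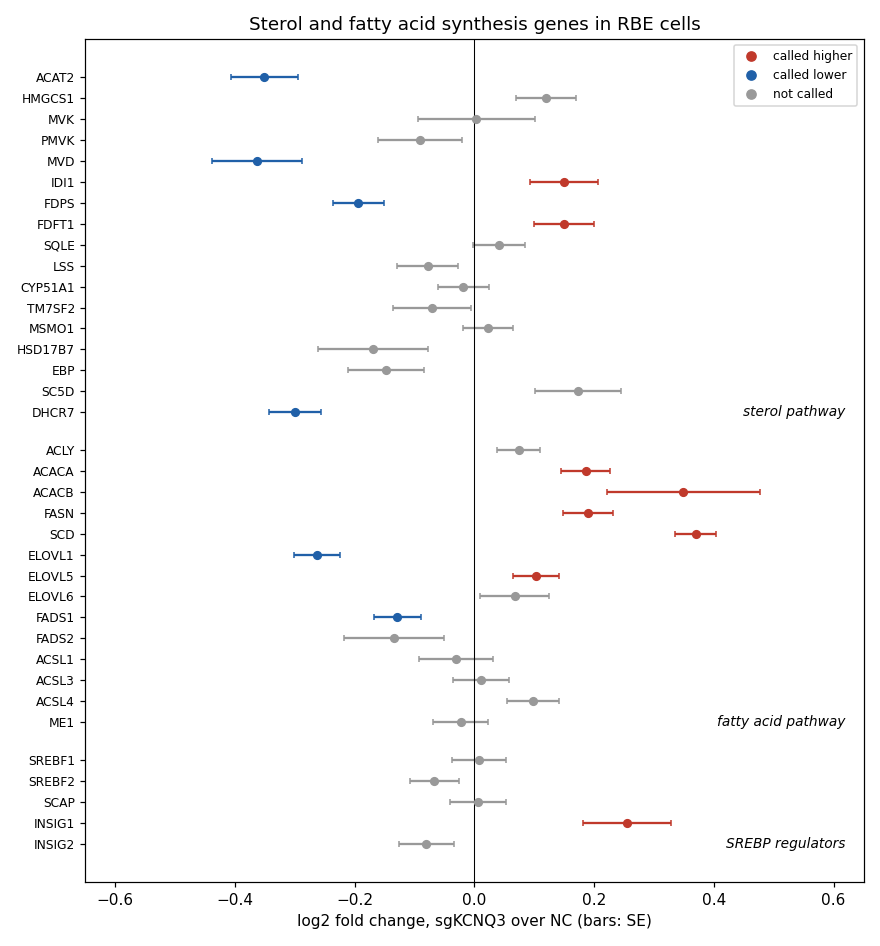
Log2 fold change of each tested member, sgKCNQ3 over NC, with bars of 1 SE from the edgeR fit on 3 libraries a group; red marks genes called higher, blue genes called lower and grey genes not called. Calls in the fatty acid group fall on both sides of 0, from ELOVL1 at -0.26 to SCD at 0.37, and those of the sterol group from MVD at -0.36 to IDI1 and FDFT1 at 0.15.

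Total counts ranged from 15601283 to 16089500 per library. KCNQ3 itself held 222, 206 and 191 counts in sgKCNQ3, against 256, 257 and 252 counts in NC, a log2 fold change of -0.33 (SE 0.0841, edgeR adjusted p 0.00446). Its mRNA fell by 20.4%, and protein was not analysed here. All 6 biliary markers examined (KRT7, KRT19, KRT8, KRT18, EPCAM and SOX9) were present, with a summed level of 4610 to 4730 TPM in sgKCNQ3 and 3990 to 4090 TPM in NC. Of the other lists, fibroblast markers summed to 2.61 to 2.78 TPM in sgKCNQ3 and 2.17 to 2.83 TPM in NC, most of it COL1A1, and endothelial, leukocyte and hepatocyte markers to at most 0.38, 1.59 and 2.34 TPM in any library. Over all tested genes 48.2% of calls were higher. With library size alone as the scaling this share was 64.5%, on log2(TPM + 1) it was 81.0%, and with trends over transcript length and GC content removed it was 39.7%.

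Levels within the set, in TPM, which corrects for transcript length, spanned more than the groups differed. In the fatty acid group ELOVL1 was the most abundant, with a mean of 403 TPM in sgKCNQ3 and 457 TPM in NC. ACLY (201 and 179 TPM), SCD (201 and 146 TPM) and ELOVL5 (176 and 156 TPM) followed. ACACB, the mitochondrial form of acetyl-CoA carboxylase, was the least abundant at 1.06 and 0.783 TPM, against 22.1 and 18.2 TPM for the cytosolic form ACACA. In the sterol group FDPS stood highest at 200 TPM in sgKCNQ3 and 217 TPM in NC, and MSMO1 next at 111 and 103 TPM. Among the regulators SREBF2 (56.5 and 55.7 TPM) and SREBF1 (42.6 and 39.4 TPM) were the most abundant, and INSIG1 (12.68 to 13.42 TPM in sgKCNQ3 and 9.77 to 10.6 TPM in NC) lay below INSIG2 (37.3 and 36.9 TPM).

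NSDHL, a sterol dehydrogenase needed to remove the methyl groups at carbon 4 of the ring, was the member that did not pass the filter. It held 1, 4 and 8 counts in sgKCNQ3 libraries and 2, 1 and 0 counts in NC libraries, at most 0.58 TPM. The enzymes on either side of it in the pathway, MSMO1 and HSD17B7, had 108.36 to 113.63 and 14.24 to 16.3 TPM in sgKCNQ3 and 100.37 to 104.69 and 15.54 to 17.13 TPM in NC. NSDHL was listed near 0 in all 6 libraries, and no fold change is given. Whether the cells lack this RNA or the authors' counting or annotation missed it was not tested.

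**Figure D2:**
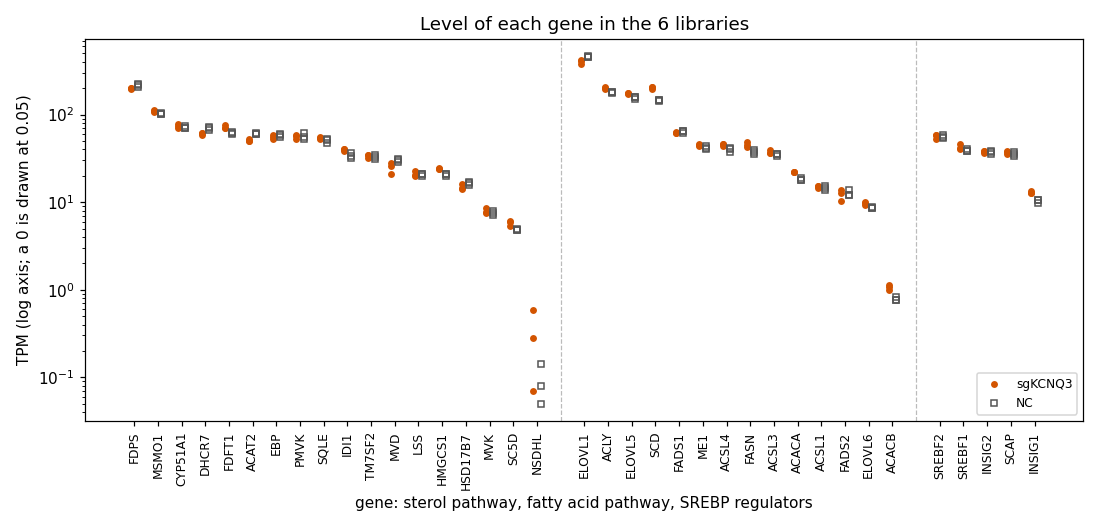
TPM of all 37 members on a log axis, 1 point per library, with sgKCNQ3 (filled circles) left of NC (open squares), ordered by the NC mean within the sterol pathway, the fatty acid pathway and the regulators; a 0 is drawn at 0.05 TPM. Most members lie between about 5 TPM (SC5D, 4.84 TPM in NC) and 457 TPM (ELOVL1 in NC), while ACACB lies near 1 TPM and NSDHL below it.

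In the fatty acid pathway 7 of 14 members were called, 5 higher and 2 lower, against 29.1% of all tested genes, 14.0% higher and 15.1% lower. Without sgKCNQ3 replicate 1 or NC replicate 3 this was 4, 3 higher and 1 lower, and with length and GC trends removed 2 higher and 2 lower. SCD, the desaturase that makes oleate and palmitoleate, held 10081, 9735 and 10052 counts in sgKCNQ3, against 7589, 7559 and 7593 in NC. As CPM, counts scaled to the size of each library, this was 626 ± 8.53 in sgKCNQ3 and 485 ± 7.32 in NC (SD, n = 3 each). All sgKCNQ3 libraries lay well above all NC libraries, and the log2 fold change of 0.37 (SE 0.0347, edgeR adjusted p 1.56e-08) is a rise of 29.2%. FASN, the synthase that builds palmitate, had 231, 225 and 247 CPM in sgKCNQ3, against 198, 214 and 204 CPM in NC. Its groups did not overlap, and it rose by a log2 fold change of 0.19 (SE 0.0418, edgeR adjusted p 0.00134).

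The acetyl-CoA carboxylases, which make the malonyl-CoA that FASN uses, were both called higher in the reported fit. ACACA had 130, 131 and 127 CPM in sgKCNQ3 and 113, 112 and 116 CPM in NC (log2 fold change 0.19, SE 0.041, edgeR adjusted p 0.00132). Its call ended with length and GC trends removed (log2 fold change 0.07, adjusted p 0.146). ACACB had 88, 101 and 92 counts in sgKCNQ3 and 69, 73 and 75 counts in NC (log2 fold change 0.35, SE 0.128, edgeR adjusted p 0.0418). Neither pair of groups overlapped, but the call for ACACB ended in each of the 6 fits that left out a library (adjusted p 0.05 to 0.14). It ended in 13 of 17 other fits in all. Among them were DESeq2 (adjusted p 0.183), limma-voom (0.0518), log2(TPM + 1) (0.0636) and no filter (0.0513). ACLY, which makes cytosolic acetyl-CoA from citrate, had 496, 526 and 499 CPM in sgKCNQ3 against 484, 484 and 477 CPM in NC. It missed the threshold (log2 fold change 0.07, edgeR adjusted p 0.127) but was called higher with upper quartile factors (0.0476), library size alone (0.0193) and log2(TPM + 1) (0.00938). ME1, a malic enzyme that supplies NADPH, had 73.5 ± 1.54 CPM in sgKCNQ3 and 74.6 ± 1.91 CPM in NC (SD, n = 3 each), with overlapping groups.

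Enzymes that lengthen and desaturate fatty acids went both ways. ELOVL1, which extends saturated very long chains, had 296, 285 and 309 CPM in sgKCNQ3, against 352, 363 and 353 CPM in NC. It fell by 0.26 on the log2 scale (SE 0.0381, edgeR adjusted p 1.28e-05), with no overlap. ELOVL5, which extends polyunsaturated chains, had 252, 261 and 253 CPM in sgKCNQ3 and 243, 228 and 241 CPM in NC, a rise of 0.10 on the log2 scale (SE 0.0382, edgeR adjusted p 0.0442). That rise was close to the threshold and was not called in 5 of the 6 fits that left out a library (adjusted p 0.0525 to 0.171), the fit without NC replicate 1 being the exception. Nor was ELOVL5 called in DESeq2 (adjusted p 0.0566). ELOVL6, which extends palmitate, had 37.6 ± 0.867 CPM in sgKCNQ3 and 35.9 ± 0.559 CPM in NC (SD, n = 3 each) and passed no threshold.

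The desaturases of polyunsaturated fatty acids, FADS1 and FADS2, did not rise with SCD. FADS1 had 157, 159 and 158 CPM in sgKCNQ3, against 176, 168 and 174 CPM in NC (log2 fold change -0.13, SE 0.039, edgeR adjusted p 0.0143). Its call ended without sgKCNQ3 replicate 1, NC replicate 1 or NC replicate 3 (adjusted p 0.0758, 0.0636 and 0.064), with library size alone (0.0791) and on log2(TPM + 1) (0.536). FADS2 had 21.6, 18.0 and 23.3 CPM in sgKCNQ3 and 22.1, 22.0 and 24.9 CPM in NC, with overlapping groups. The 2 genes overlap at their starts on opposite strands, and the sources used here do not say whether counting used strand. Of the acyl-CoA synthetases among the members, enzymes that activate fatty acids, none was called. ACSL1 had a log2 fold change of -0.03, ACSL3 of 0.01 and ACSL4 of 0.10, and with 2 SE on each side these intervals ran from -0.15 to 0.09, from -0.08 to 0.10 and from 0.01 to 0.19. ACSL4 was called higher with upper quartile factors (0.0464), library size alone (0.0254) and log2(TPM + 1) (0.0241).

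In the sterol pathway 6 of 17 tested members (35.3%) were called, 4 lower and 2 higher. All tested genes had 29.1% called, 15.1% lower and 14.0% higher. The opening steps, from acetyl-CoA to the isoprenoid farnesyl diphosphate, held both directions. ACAT2, the thiolase that joins 2 acetyl-CoA, had 38.3, 41.6 and 37.9 CPM in sgKCNQ3, against 51.4, 50.1 and 48.7 CPM in NC (log2 fold change -0.35, SE 0.0562, edgeR adjusted p 4.42e-05). All sgKCNQ3 libraries were below all NC libraries, and the gene fell by 21.6%. The annotation places exons of TCP1 and SOD2 on the opposite strand over those of ACAT2, by up to 1106 bases. Of these partners, TCP1 was not called (log2 fold change 0.04, edgeR adjusted p 0.438) and SOD2 rose by 0.24 (adjusted p 0.000134). HMGCS1, which makes HMG-CoA, had 66.6, 69.4 and 64.9 CPM in sgKCNQ3 and 63.3, 58.5 and 63.1 CPM in NC. Its groups did not overlap, but the log2 fold change of 0.12 (SE 0.0502) missed the threshold (edgeR adjusted p 0.0751). HMGCS1 was called higher with upper quartile factors (0.0376), library size alone (0.0207) and log2(TPM + 1) (0.0134).

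The kinases MVK and PMVK, which phosphorylate mevalonate, passed no threshold, with log2 fold changes of 0.003 (SE 0.0981) and -0.09 (SE 0.0705). MVD, the decarboxylase that follows them, had 27.0, 20.9 and 24.6 CPM in sgKCNQ3, against 30.3, 32.2 and 30.8 CPM in NC. It fell by 0.36 on the log2 scale (SE 0.0756, edgeR adjusted p 0.000787), or by 22.2%, with sgKCNQ3 replicate 2 lowest. IDI1, the isomerase of the next step, had 49.1, 52.2 and 50.1 CPM in sgKCNQ3 and 48.5, 45.4 and 42.5 CPM in NC, a rise of 0.15 (SE 0.0568, edgeR adjusted p 0.0481). FDPS, which makes farnesyl diphosphate, had 125, 126 and 124 CPM in sgKCNQ3 against 136, 149 and 143 CPM in NC, a fall of 0.19 (SE 0.0426, edgeR adjusted p 0.00128). In the reported fit neighbouring steps were thus called in opposite directions. The IDI1 call ended in 10 of 17 other fits, among them DESeq2 (adjusted p 0.116) and limma-voom (0.0514). With a library left out it ended in 5 of 6 fits (adjusted p 0.0629 to 0.263), the fit without NC replicate 1 being the exception. The FDPS call ended on log2(TPM + 1) (adjusted p 0.0602). RefSeq names 10 pseudogenes after FDPS, 3 each after IDI1 and CYP51A1, 2 after HSD17B7 and 1 each after SCD and ACSL3. Reads could have been shared with these copies.

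FDFT1, squalene synthase and the entry to sterols proper, had 78.7, 87.7 and 77.3 CPM in sgKCNQ3, against 72.8, 72.2 and 74.7 CPM in NC (log2 fold change 0.15, SE 0.0501, edgeR adjusted p 0.0262). The call was lost without sgKCNQ3 replicate 2 (log2 fold change 0.10, adjusted p 0.124) and without each of the NC libraries in turn (adjusted p 0.0501 to 0.0827), and in DESeq2 (0.0579). SQLE, the squalene epoxidase, had 91.8, 90.3 and 89.7 CPM in sgKCNQ3 and 88.1, 85.6 and 90.5 CPM in NC, so the groups overlapped. Its log2 fold change of 0.04 had an interval of 2 SE on each side from -0.05 to 0.13.

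The cyclase LSS and the demethylation and reduction steps after it, CYP51A1, TM7SF2, MSMO1 and HSD17B7, passed no threshold, with log2 fold changes from -0.17 for HSD17B7 to 0.02 for MSMO1. The isomerase EBP had 29.2 ± 0.835 CPM in sgKCNQ3 and 32.4 ± 1.63 CPM in NC (SD, n = 3 each), and the desaturase SC5D had 25.3, 22.4 and 24.3 CPM in sgKCNQ3 and 22.1, 21.0 and 20.7 CPM in NC. Neither pair of groups overlapped, but both genes missed the threshold (edgeR adjusted p 0.0792 for EBP and 0.0703 for SC5D). SC5D was called higher with upper quartile factors (0.0452), library size alone (0.0311) and log2(TPM + 1) (0.047) and without sgKCNQ3 replicate 2 (0.0242). DHCR7, the reductase that turns 7-dehydrocholesterol into cholesterol, had 89.3, 86.7 and 88.9 CPM in sgKCNQ3, against 105, 113 and 108 CPM in NC. It fell by 0.30 on the log2 scale (SE 0.0436, edgeR adjusted p 1.34e-05), or by 18.8%, and was the last enzyme of the route examined.

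The median log2 fold change was -0.07 over the 17 sterol members and 0.07 over the 14 fatty acid members. Summed over members, sterol genes took 1031, 1020 and 1010 CPM in sgKCNQ3 and 1057, 1069 and 1064 CPM in NC, while fatty acid genes took 2616, 2631 and 2643 CPM in sgKCNQ3 and 2484, 2448 and 2468 CPM in NC. These sums are dominated by the most abundant genes and carry no test. Both medians depended on the scaling: on log2(TPM + 1) they were 0.01 and 0.15, and with length and GC trends removed 0.004 and -0.02. The split of calls moved too. Of the called members, 2 of 6 were higher in the sterol group and 5 of 7 in the fatty acid group. With library size alone these were 4 of 8 and 7 of 8, with upper quartile factors 4 of 8 and 7 of 9, and on log2(TPM + 1) 4 of 7 and 6 of 7. With length and GC trends removed they were 1 of 5 and 2 of 4, and in DESeq2 0 of 4 and 3 of 5.

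Of the 5 regulators, INSIG1 alone was called (20.0%, against 29.1% of all tested genes). INSIG1, the sterol-sensing anchor of SCAP and itself a known SREBP target, had 22.1, 21.5 and 21.0 CPM in sgKCNQ3, against 18.8, 17.1 and 18.3 CPM in NC. All sgKCNQ3 libraries were higher, and INSIG1 rose by 19.3% (log2 fold change 0.25, SE 0.0736, edgeR adjusted p 0.0108). The call ended without NC replicate 2 (log2 fold change 0.22, adjusted p 0.0502) and in DESeq2 (0.26, adjusted p 0.0507). Its paralog INSIG2 had 76.2, 72.9 and 74.8 CPM in sgKCNQ3 and 81.8, 76.1 and 79.0 CPM in NC, with overlapping groups and a log2 fold change of -0.08 (SE 0.0464, edgeR adjusted p 0.202). With length and GC trends removed INSIG2 was called lower (log2 fold change -0.11, edgeR adjusted p 0.0476).

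SREBF1, which encodes SREBP-1, had 113, 108 and 119 CPM in sgKCNQ3 and 109, 117 and 113 CPM in NC. Its log2 fold change was 0.01, with an interval of 2 SE on each side from -0.08 to 0.10. SREBF2, which encodes SREBP-2, had 179, 166 and 180 CPM in sgKCNQ3 and 182, 179 and 190 CPM in NC (log2 fold change -0.07, interval -0.15 to 0.02). SCAP had 88.9, 87.0 and 91.7 CPM in sgKCNQ3 and 85.4, 93.8 and 87.3 CPM in NC (log2 fold change 0.01, interval -0.09 to 0.10). In all 3 genes the groups overlapped. SREBP activity is set mainly by cleavage of the protein, which RNA levels do not show.

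Promoter sequences are given for 6 genes: SREBF2, the regulator whose window held a sterol element, INSIG1, the regulator called, SCD and ELOVL1, the largest rise and fall of the fatty acid group, and MVD and FDPS, falling sterol enzymes. Each run is the 250 bases before the RefSeq start of the gene (GRCh38.p14), read 5′ to 3′ on the gene's own strand. The places are chr22:41832855-41833104, plus strand for SREBF2, chr7:155297628-155297877, plus strand for INSIG1, chr10:100346983-100347232, plus strand for SCD, chr1:43368012-43368261, minus strand for ELOVL1, chr16:88663092-88663341, minus strand for MVD and chr1:155308616-155308865, plus strand for FDPS. Capitals mark the core of the sterol regulatory element (TCACNCCAC), to which SREBPs bind, and the CCAAT box, to which their partner NF-Y binds, on either strand.
SREBF2: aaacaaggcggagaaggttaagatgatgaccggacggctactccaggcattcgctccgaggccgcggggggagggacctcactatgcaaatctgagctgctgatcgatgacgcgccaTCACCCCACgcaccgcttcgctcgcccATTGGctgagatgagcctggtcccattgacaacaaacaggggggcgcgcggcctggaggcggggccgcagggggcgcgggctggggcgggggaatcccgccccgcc
INSIG1: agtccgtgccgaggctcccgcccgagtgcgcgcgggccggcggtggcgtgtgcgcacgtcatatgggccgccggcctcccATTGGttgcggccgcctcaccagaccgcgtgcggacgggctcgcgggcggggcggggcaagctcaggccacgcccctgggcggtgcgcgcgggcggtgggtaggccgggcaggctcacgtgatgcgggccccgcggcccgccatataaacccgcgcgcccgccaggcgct
SCD: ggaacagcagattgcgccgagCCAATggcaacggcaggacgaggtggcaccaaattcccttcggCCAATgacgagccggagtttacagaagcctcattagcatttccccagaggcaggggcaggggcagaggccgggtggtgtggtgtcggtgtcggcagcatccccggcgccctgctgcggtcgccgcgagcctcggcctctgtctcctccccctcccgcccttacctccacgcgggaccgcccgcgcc
ELOVL1: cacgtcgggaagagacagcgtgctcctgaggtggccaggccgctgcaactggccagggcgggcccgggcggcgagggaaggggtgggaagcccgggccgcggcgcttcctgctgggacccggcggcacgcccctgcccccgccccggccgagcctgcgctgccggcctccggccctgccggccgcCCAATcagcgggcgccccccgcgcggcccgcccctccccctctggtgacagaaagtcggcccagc
MVD: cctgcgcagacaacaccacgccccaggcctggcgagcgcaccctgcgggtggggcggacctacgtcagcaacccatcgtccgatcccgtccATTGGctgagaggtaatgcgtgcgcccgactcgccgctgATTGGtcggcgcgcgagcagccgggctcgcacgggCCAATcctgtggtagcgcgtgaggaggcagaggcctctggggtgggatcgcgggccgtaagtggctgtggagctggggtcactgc
FDPS: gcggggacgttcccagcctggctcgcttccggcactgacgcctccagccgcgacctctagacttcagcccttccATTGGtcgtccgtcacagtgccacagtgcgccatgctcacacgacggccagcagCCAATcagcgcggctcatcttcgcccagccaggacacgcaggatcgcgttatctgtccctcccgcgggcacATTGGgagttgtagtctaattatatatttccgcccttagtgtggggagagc

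RefSeq promoter windows, 250 bases before and 50 after a start, were matched for 33 of the 37 members, with 48 windows in all. The sterol element core, searched on both strands, was in the windows of 2 members (6.06%), SREBF2 and ACSL1, and of 1.39% of all genes. In SREBF2 it begins at -133 from the start, with a CCAAT box on the opposite strand at -106. CCAAT was in the windows of 24 members (72.7%), against 39.7% of all genes, and the Sp1 box GGGCGG in 31 (93.9%), against 48.3%. Here all genes means the 27305 genes with a promoter window, more than the 16200 genes of the deposited table. They were not matched to the members for expression or for windows per gene. The gaps may therefore not be particular to these pathways. In 1 window of a member matches to 2 of these motifs overlapped. CCAAT was present in 6 of 6 matched members called higher, 4 of 5 called lower and 13 of 21 not called, so it did not separate the directions. MVD and FDPS, which fell, hold 3 boxes each, and SCD, which rose, holds 2 in the runs printed above. For a gene with several windows, the run printed came from the window with the most matches to the core and CCAAT. These box counts may therefore not compare the genes evenly. A match is a description of letters, and the absence of the core says only that these letters are not in the window.

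Fold change moved with transcript length. Members called higher had a median longest coding transcript of 4366 bases (2660 to 9961), and members called lower 2245 bases (1478 to 4525), against 3484 over all tested genes. Across the 36 members, Spearman's rho of fold change was 0.52 with length and -0.36 with GC content, and over all tested genes 0.32 and -0.26, the points sharing the same 6 libraries. With each library's trend over length and GC removed, 10 of the 14 called members were still called. SCD had a log2 fold change of 0.31 (edgeR adjusted p 6.25e-08), FASN 0.14 (0.0022), ACAT2 -0.34 (2.92e-05), DHCR7 -0.25 (2.71e-05), MVD -0.26 (0.00737) and ELOVL1 -0.19 (0.000217). ACACA, whose transcript is the longest of the set at 9961 bases, was not called (0.07, adjusted p 0.146), nor were ACACB (0.26, 0.137), ELOVL5 (0.08, 0.0552) and IDI1 (0.12, 0.0845). FASN, at 8565 bases and 65.3% GC, was called under both fits, and ACACA, with 48.7% GC, under the first. FDFT1, INSIG1, FDPS and FADS1 were also called under both (adjusted p 0.00711, 0.00805, 0.0184 and 0.0025).

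Other genes of sterol and lipid handling were mixed. Of 9 tested genes of the liver X receptor (LXR) system, which responds to oxysterols, 5 were called higher and none lower, against 14.0% and 15.1% of all tested genes. RXRA, the receptor partner of LXR, had 51.1, 51.4 and 54.4 CPM in sgKCNQ3 and 42.3, 43.5 and 43.6 CPM in NC (log2 fold change 0.28, SE 0.0534, edgeR adjusted p 0.000343). MYLIP, an LXR-induced ubiquitin ligase that targets lipoprotein receptors, had 11.2, 11.4 and 9.82 CPM in sgKCNQ3 and 7.72, 8.27 and 8.18 CPM in NC (0.42, SE 0.101, adjusted p 0.00268). ABCG1, a sterol exporter, rose by 0.26 (adjusted p 0.00632), a call that ended without sgKCNQ3 replicate 1 (0.0611). The list's count was 3 higher in DESeq2 and without sgKCNQ3 replicate 1 or 2 or NC replicate 2 or 3. With length and GC trends removed it was 5 higher and 1 lower. For RXRA, MYLIP and ABCG1 the groups did not overlap.

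Of 18 tested genes of sterol uptake, transport and esterification, 4 were called higher and 3 lower, against 14.0% and 15.1% of all tested genes. NPC1, which exports cholesterol from lysosomes, had 126, 126 and 125 CPM in sgKCNQ3, against 151, 152 and 154 CPM in NC (log2 fold change -0.28, SE 0.0397, edgeR adjusted p 1.04e-05). LIPA, the lysosomal lipase that frees that cholesterol, had 71.1, 72.9 and 77.7 CPM in sgKCNQ3, against 60.5, 59.6 and 63.1 CPM in NC (0.28, SE 0.0496, adjusted p 0.000179). These lysosomal genes moved in opposite directions, with no overlap between groups. GRAMD1B, a carrier of sterol from the plasma membrane, rose by 0.43 (adjusted p 0.000389). Without sgKCNQ3 replicate 1 or NC replicate 3 the list held 4 calls, and without NC replicate 2 it held 3. Of 17 genes of SREBP processing and turnover, 2 were called higher and none lower, against 14.0% and 15.1% of all tested genes. With length and GC trends removed 1 was higher and 4 lower, and on log2(TPM + 1) 6 were higher. RNF145, a sterol-responsive ubiquitin ligase, rose by 0.18 (adjusted p 0.00876). MARCHF6, a ubiquitin ligase that degrades SQLE, rose by 0.15 (adjusted p 0.00899), but had a log2 fold change of 0.003 with length and GC trends removed. Without NC replicate 3 neither ligase was called (RNF145 0.0568, MARCHF6 0.0601).

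Of 14 genes in the branches of the mevalonate pathway that do not lead to sterols, 4 were called, each lower against 29.1% of all tested genes called, and 2 without NC replicate 1, 2 or 3. On log2(TPM + 1) 1 was called higher and 1 lower. RABGGTB, a subunit of the enzyme that attaches geranylgeranyl groups to RAB proteins, had 39.4, 42.8 and 38.2 CPM in sgKCNQ3, against 49.4, 49.6 and 49.5 CPM in NC (log2 fold change -0.30, SE 0.0561, edgeR adjusted p 0.00024). Its partner subunit RABGGTA fell by 0.25 on this scale with an adjusted p of 0.00884, and was not called with length and GC trends removed (-0.17, adjusted p 0.0696). Of 8 tested genes of oxysterol and bile acid synthesis 1 was called, against 29.1% of all tested genes. This was BAAT, which conjugates bile acids, at 1.95 ± 0.495 CPM in sgKCNQ3 and 1.13 ± 0.204 CPM in NC (SD, n = 3 each, log2 fold change 0.78, adjusted p 0.0228). Its call was lost without sgKCNQ3 replicate 2, sgKCNQ3 replicate 3 or NC replicate 3 (adjusted p 0.0855, 0.0799 and 0.114).

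Of 19 further genes of fatty acid synthesis and elongation, 3 were called higher and 6 lower, against 14.0% and 15.1% of all tested genes. HACD2, a dehydratase of the elongation cycle, had 98.1, 96.2 and 95.4 CPM in sgKCNQ3, against 73.1, 71.9 and 80.7 CPM in NC (log2 fold change 0.36, SE 0.0479, edgeR adjusted p 4.03e-06). PANK1, a kinase of coenzyme A synthesis, rose by 0.45 (adjusted p 0.00204). ACSL5, another acyl-CoA synthetase, had 30.7, 30.5 and 34.7 CPM in sgKCNQ3 and 40.1, 40.9 and 41.8 CPM in NC (-0.36, SE 0.0616, adjusted p 0.000112), so it was called lower where ACSL1, ACSL3 and ACSL4 were not called. The FADS1 neighbour FADS3 fell by 0.26 (adjusted p 0.000533).

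Among 18 tested genes of glycerolipid synthesis and lipid droplets, 4 were called, each lower in the reported fit. Over all tested genes 29.1% were called, 15.1% of them being lower and 14.0% higher as shares of all tested genes. With library size alone 2 were called higher and 4 lower, and on log2(TPM + 1) 2 higher and 1 lower. DGAT2, which makes triacylglycerol, had 20.4, 18.9 and 16.6 CPM in sgKCNQ3, against 23.5, 24.1 and 26.3 CPM in NC (log2 fold change -0.40, SE 0.079, edgeR adjusted p 0.000454). The lipases of stored fat were also lower: PNPLA2 fell by 0.20 (adjusted p 0.00228), its activator ABHD5 by 0.20 (0.00212) and MGLL by 0.22 (0.000144), each on the log2 scale. On log2(TPM + 1) none of these 3 was called (adjusted p 0.199, 0.634 and 0.0821). Of 21 tested genes of fatty acid oxidation, 2 were called higher and 2 lower, against 14.0% and 15.1% of all tested genes. That list held 1 call without sgKCNQ3 replicate 1 and 2 without sgKCNQ3 replicate 3. Of 10 genes listed for NADPH supply and the pentose phosphate pathway 2 were called, against 29.1% of all tested genes. IDH1 rose by 0.20 (adjusted p 0.00104) and TALDO1 fell by 0.205 (0.000537), both on the log2 scale, and without sgKCNQ3 replicate 2 the list held 4 calls.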

How the data were processed

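RNA of RBE cells was measured in 6 libraries, grouped by title, 3 labelled sgKCNQ3 and 3 labelled NC. Per the labels' protocols, poly(A) RNA was fragmented and reverse transcribed from random primers, and the adapter-ligated cDNA was amplified by PCR and then circularised. The submitters' processing notes give GRCh38.p13 as the build. Which aligner, counter and strand setting were used is not given in the sources. The authors deposited estimated counts (expected counts, 5.53% to 6.33% not whole per library) without normalization, and TPM values scaled to a fixed total. The deposited FPKM values, the signal columns (the authors' counts divided by a factor per library), and the authors' group means, including a whole-number score, were not used.

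Rounded counts went into edgeR 4.0.16 under R 4.3.3: filterByExpr (minimum count 10), TMM factors, robust quasi-likelihood F tests, Benjamini-Hochberg adjustment over 12565 genes, threshold 0.05. The SE is the log2 fold change divided by the square root of F. CPM values use TMM-scaled library sizes. An exact permutation test of 3 against 3 libraries cannot go below 0.1, so p-values rest on the model across genes. Tested on simulated counts of this comparison (12498 genes), the procedure recovered 32 of 50 genes at a log2 fold of 0.25 and 43 of 50 at 0.5, with 7.53% of calls false. The simulation held far fewer changed genes, with 186 calls against 3658 in the data, so these shares may not carry over. Replicates differed by 1.63 to 4.17 times the sampling variance, so no libraries were merged. Transcript length and GC content came from GENCODE release 29 (12509 tested genes matched); trends were natural splines with 5 degrees of freedom. Alternatives were other scalings, DESeq2 1.42.0, limma 3.58.1 (voom, and log2(TPM + 1)), other filters, a replicate block and each library left out. Figures were drawn with matplotlib 3.10.9. Members and lists were chosen with earlier results of these data known. All 37 members may be named, and from each related list up to 4 called genes with the smallest p; genes overlapping ACAT2 were named after their values were seen. Some genes of these pathways and marker lists are not reported here. Intervals cover the spread between these samples only.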

Additional observations from a re-analysis of the deposited data

How the results depend on the processing

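Over 17 alternatives, ACAT2, DHCR7, MVD, ELOVL1, FASN and SCD were called in the same direction in each, and none of the 14 called members changed sign in any. Against 7 called fatty acid members, 4 were called with length and GC trends removed, with and without the replicate block, and 4 to 5 with a library left out (4 without sgKCNQ3 replicate 1 and without NC replicate 3). Against 6 called sterol members, 4 to 5 were called with a library left out. Of the regulators, 0 were called in DESeq2, 2 with length and GC trends removed, and 0 to 1 with a library left out (0 without NC replicate 2). Over all genes 3658 were called, 2448 by DESeq2 and 2687 to 3471 with a library left out. The replicate numbers did not pair the libraries: deviations of same-numbered libraries correlated at -0.0978 to 0.0136, and 0 of 3 correlated best with their own number. With the replicate number as a block 3136 genes were called, 4 of them sterol members, 5 fatty acid members and 1 regulator, so that IDI1, FDFT1, ELOVL5 and ACACB were not called (adjusted p 0.0721, 0.0509, 0.0763 and 0.0591).

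Counts of related lists moved by over 1.5 times outside the fits with a library left out as follows. LXR genes had 5 calls, against 3 in DESeq2 and limma-voom. Sterol uptake had 7, against 3 in DESeq2 and 4 with the block and trends removed. SREBP processing had 2, against 4 with upper quartile factors or library size alone, 6 on log2(TPM + 1), all higher, and 5 with trends removed, 4 of them lower. Fatty acid oxidation had 4, against 1 in DESeq2 and 2 on log2(TPM + 1) or with trends removed. NADPH supply had 2, against 4 with no filter or trends removed. Non-sterol branches had 4, against 2 with RLE factors, upper quartile factors, library size alone, DESeq2, the block or log2(TPM + 1), and 1 with trends removed. Oxysterol and bile acid synthesis had 1, against 0 in DESeq2 and with at least 2 CPM required in 3 libraries.

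The members that changed sign were not called in the reported fit. On log2(TPM + 1), log2 fold changes were 0.011 for LSS, 0.067 for CYP51A1, 0.011 for TM7SF2, 0.055 for ACSL1, 0.095 for ME1, 0.019 for SREBF2 and 0.017 for INSIG2. With library size alone they were 0.018 for CYP51A1, 0.0052 for ACSL1 and 0.013 for ME1, and with upper quartile factors 0.0015 for CYP51A1. With length and GC trends removed, without and with the block, they were 0.0044 and 0.0052 for PMVK, 0.0262 and 0.0264 for TM7SF2, -0.0453 and -0.0453 for ELOVL6, -0.0967 and -0.098 for ACSL3, and -0.0015 and -0.0014 for ACSL4. With a library left out, MVK ranged from -0.0597 to 0.0682, CYP51A1 from -0.0476 to 0.0108, ACSL1 from -0.0744 to 0.00498, ACSL3 from -0.0334 to 0.0425, SREBF1 from -0.0243 to 0.0506 and SCAP from -0.0222 to 0.0462. The cause of these changes was not tested. Small folds can be missed: in simulation 32 of 50 genes with a log2 fold of 0.25 were recovered. Far fewer genes were changed there (186 calls, against 3658 in the data), so the share missed in the data may differ.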

Other observations

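NSDHL, on the X chromosome, stood apart from the other sterol genes in both groups. Its TPM was 0.07, 0.28 and 0.58 in sgKCNQ3 and 0.14, 0.08 and 0.0 in NC. The protein-coding genes next to it in RefSeq, chosen after its values were seen, had TPM values well above it; whether the counting missed NSDHL was not tested. CETN2, which encodes a centrin, had 41.65, 47.49 and 45.84 TPM in sgKCNQ3 and 46.91, 42.85 and 44.5 TPM in NC. ZNF185, which encodes an actin-binding protein, had 5.15, 4.86 and 5.06 TPM in sgKCNQ3 and 5.48, 5.38 and 5.37 TPM in NC. The sterol isomerase EBP, also on the X chromosome, had 53.07 to 58.11 TPM in sgKCNQ3 and 55.47 to 60.82 TPM in NC.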
